A study of Mus musculus with 5 samples.

Results

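Polycomb repressive complex 2 (PRC2) is assembled from products of 10 genes examined here: the core genes Ezh1, Ezh2, Eed, Suz12, Rbbp4 and Rbbp7, and the accessory genes Aebp2, Jarid2, Mtf2 and Phf19. They were chosen by gene symbol, 10 of the 46078 genes in the expression table of each library, after values of the same 8 h and 1 h samples had been seen. Differences between these groups are therefore given as descriptions of the 10 genes, without tests of them. RNA-seq was carried out on neural stem and precursor cells from the subventricular zone, the niche beside the lateral ventricles of the adult mouse forebrain. The cells carried no mutation, came from mice labelled C57BL/6, female and 5 to 8 weeks old (the methods of the study describe older adults of the substrain C57BL/6j), were grown as spheres and were sequenced as cultures on coated plates. All received PBS as a sham exposure, for 1 h in 2 libraries (replicates 1 and 2) and for 8 h in 3 libraries (replicates 13, 14 and 15), and no untreated group was analysed here. Each library was made from a culture of dividing cells and not from sorted cells, so fewer cells of a type and less RNA per cell cannot be told apart.

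PRC2 places methyl groups on H3K27, a mark of silenced developmental genes. EZH2 and EZH1 are its alternative catalytic subunits, EED reads the mark and stimulates the enzyme, SUZ12 holds the complex together, and RBBP4 and RBBP7 are histone-binding proteins. EZH2 is typical of dividing cells and EZH1 of resting ones. Accessory subunits form separate versions of the complex: AEBP2 and JARID2 join one version, and the Polycomb-like proteins MTF2 and PHF19 join another. In neural stem cells PRC2 is known for its part in self-renewal and in the timing of neuron and glia production.

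The libraries stood apart in ways that the times do not explain. Their identifiers fall into 2 number series, with 1 h replicates 1 and 2 and 8 h replicate 14 in series 1 and 8 h replicates 13 and 15 in series 2, and neither the labels nor the methods say what a series is. Xist, the RNA of the inactive X chromosome, was at 165.3 and 199.7 TPM (a transcript level corrected for gene length and library size) in the series 2 libraries and at most 0.0611 TPM in series 1. The sum of 4 Y-linked genes was 137.6 to 180.9 TPM in series 1 and at most 0.0253 TPM in series 2, although every label says female. Proliferation markers summed to 1070 to 1209 TPM in series 1 and to 2089 and 2241 TPM in series 2, with all 12 of 12 markers higher in both series 2 libraries than in any series 1 library. Top2a, the DNA topoisomerase of dividing cells, had 156.1, 160.5 and 147.3 TPM in series 1 against 324.2 and 375.8 TPM in series 2. Neural stem and precursor markers summed to 11150 to 14276 TPM, whereas microglia markers summed to 0.461 to 1.47 TPM, endothelial markers to 10.02 to 13.6 TPM and ependymal markers to 16.3 to 27.5 TPM. Single genes made up most of each of these sums: Fabp7 (mean 8582 TPM), P2ry12 (0.834 TPM), Flt1 (11.8 TPM) and Foxj1 (19.2 TPM). The endothelial markers Cldn5 and Cdh5 and the ependymal marker Tmem212 were at 0. Oligodendrocyte lineage markers summed to 1639 to 2461 TPM, astrocyte markers to 491.4 to 826.6 TPM and neuron markers to 212.8 to 459.6 TPM. Olig1 (mean 1345 TPM), Aldh1l1 (579.0 TPM) and Map2 (240.2 TPM) made up most of these sums, in that order. Columns of the read count table held 13988166 to 18572154 reads. Taking the column of 1 h replicate 1 as its own library, the column named for 8 h replicate 13 was closest to the table of replicate 14 (86.9% of 6860 genes within 0.1 on the log2 scale), the column named for replicate 15 was closest to the table of replicate 13 (85.9%), and the column named for replicate 14 was close to none (at most 39.8%). Count columns are used by their names below, and at 8 h they are read as a group, not against the TPM of the library they are named for. The column named for replicate 14 was nearest to the table of 1 h replicate 2 (39.8%). Each count value of the 8 h group thus includes a column whose identity is not settled. The table of 8 h replicate 15 was closest to the column of its own name, at only 43.3%. Differences in counts and in TPM may therefore rest on unlike 8 h libraries.

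The promoters of the 10 genes are shown first, with the binding letters of E2F factors, which drive genes of the dividing cell. RefSeq windows (GRCm38.p6) of 250 bases before to 50 bases after a start site covered all 10 genes. The E2F letters searched were TTTCCCGC, TTTCGCGC, TTTGCCGC and TTTGGCGC on both strands, chosen after these windows had been searched for this and shorter forms of the motif. They were found in 3 of 10 members, Ezh2, Phf19 and Suz12, and in 2.605% of 27025 genes. The stretches below have the matching letters in capitals and are read along the strand of the gene.
Ezh2 (chr6:47595010-47595037, minus strand, match beginning 4 bases into the transcript): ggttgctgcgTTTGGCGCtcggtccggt
Phf19 (chr2:34914167-34914194, minus strand, match beginning 208 bases before the start): tcaataattcGCGGGAAAacgcgaaaaa
Suz12 (chr11:79992877-79992904, plus strand, match beginning 219 bases before the start): gacccctcatTTTCCCGCgaattcagtt
In Phf19 the match is on the opposite strand. The CCAAT box (CCAAT, either strand) was present in 8 of 10 members and in 41.1% of genes, and the GC box (GGGCGG, either strand) in 7 of 10 members and 38.2% of genes. All 10 members had windows rich in the CpG dinucleotide, with 17 (Eed) to 41 (Suz12) CpGs in the richest 300-base window of a gene and a median of 30.5, against a median of 8 over all genes. Of all genes, 33.9% reached at least 17. A match in these windows is a description of letters, not of a bound site. Each E2F form searched holds a CpG and was chosen after the search, and the members' windows are CpG-rich. Nothing is therefore read from the members' share of E2F letters beside that of all genes.

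The 10 members differed widely in level, from Rbbp4 at the 95.2th percentile of the genes with a mean of at least 1 TPM to Ezh1 at the 19.5th. Their order by mean TPM over the 5 libraries was Rbbp4 (221.4 ± 11.5, SD, n = 5), Rbbp7 (190.8 ± 39.3), Ezh2 (77.1 ± 18.8), Eed (47.3 ± 7.57), Aebp2 (41.1 ± 17.8), Suz12 (34.4 ± 13.5), Mtf2 (26.8 ± 4.76), Jarid2 (17.4 ± 2.59), Phf19 (8.94 ± 3.59) and Ezh1 (4.81 ± 0.751). Neighbours in this order overlapped in TPM range, except that Rbbp7 lay above Ezh2, Ezh2 above Eed and Jarid2 above Phf19 without overlap. By mean per-base coverage, however, Eed (3rd) stood above Ezh2 (4th). Phf19 (7th) and Ezh1 (8th) likewise stood above Jarid2 (9th) and Aebp2 (10th), so the order depended on the measure. Rbbp4 and Rbbp7 also belong to other chromatin complexes, and their levels need not be those of PRC2. The sum of the 10 genes was 639.7 and 551.8 TPM at 1 h and 759.6, 630.5 and 768.5 TPM at 8 h, so that 8 h replicate 14 lay between the 1 h libraries and the other 8 h libraries lay above both.

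**Figure D1:**
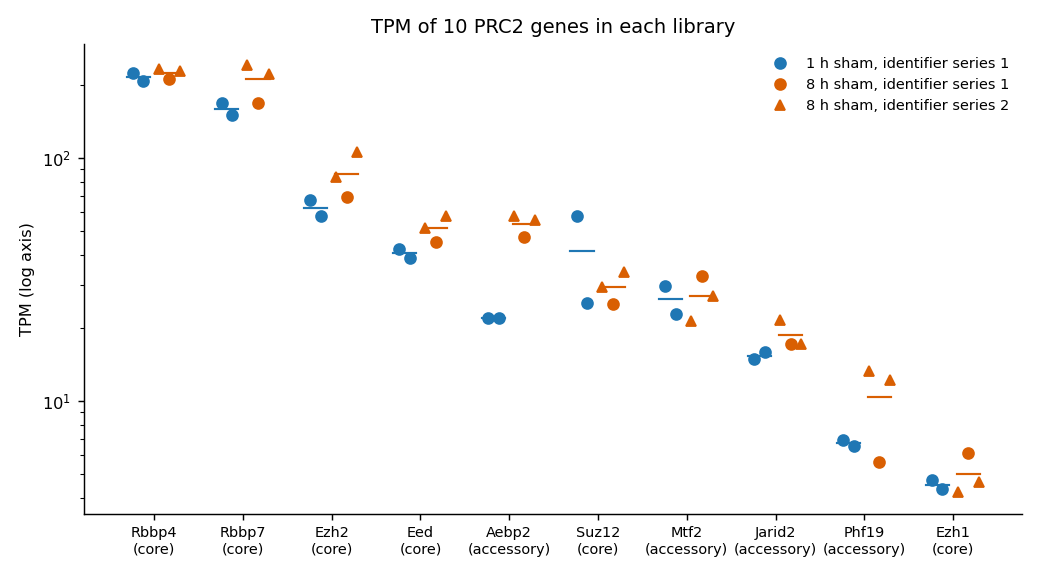
TPM of each PRC2 gene (log axis) in the 5 libraries, with blue points for 1 h sham, orange points for 8 h sham, triangles for identifier series 2 and short lines for the group means. Aebp2 is the gene whose 1 h points (both 22.0 TPM) lie furthest below all 8 h points (47.5 to 57.9 TPM), and Suz12 has 1 high point, 57.7 TPM in 1 h replicate 1.

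Among the core genes, Ezh2 and Eed were higher in every 8 h library than in either 1 h library, whereas Ezh1, Suz12, Rbbp4 and Rbbp7 overlapped between the groups. Ezh2 (GRCm38 chr6:47530274-47595341, minus strand), the main catalytic subunit of dividing cells, was at 67.4 and 58.0 TPM at 1 h and at 83.9, 69.5 and 106.4 TPM at 8 h. The lowest 8 h value, in replicate 14, was just above the higher 1 h value, and the means were 62.7 ± 6.62 (SD, n = 2) and 86.6 ± 18.6 (n = 3), a fold of 1.38. On the scale of log2(TPM + 1) the difference was 0.44 with a standard error (SE) of 0.19. Within series 1 alone, with 8 h replicate 14 as the only 8 h library, the difference was 0.15. In read counts it was 0.13 by edgeR, or 0.23 without the column named for replicate 14, and the CPM of the groups overlapped. In TPM it was 0.28 without 8 h replicate 15, to whose table no count column was close.

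Eed (chr7:89954656-89980983, minus strand) followed Ezh2 closely, with 42.5 and 39.0 TPM at 1 h and 51.9, 45.2 and 57.9 TPM at 8 h. Its means were 40.8 ± 2.47 and 51.7 ± 6.37 TPM, a fold of 1.27, and its log2 difference was 0.33 (SE 0.13), or 0.15 within series 1 and 0.065 in read counts, where the groups overlapped. Without the column named for replicate 14 the count difference was 0.10. With each gene centred on its own mean, Ezh2 and Eed were the closest of all pairs of members, with a root mean square difference of 0.105 on the log2 scale over the 5 libraries. Eed and Rbbp7 came next at 0.113, and Suz12 and Aebp2 were furthest apart at 0.878.

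Ezh1 (chr11:101191115-101226463, minus strand), the catalytic subunit of resting cells, was the lowest member in mean TPM. It was at 4.74 and 4.35 TPM at 1 h, and at 4.21, 6.10 and 4.67 TPM at 8 h, and the groups overlapped, with a log2 difference of 0.10 (SE 0.19). The ratio of Ezh2 to Ezh1 was 14.2 and 13.4 at 1 h and 19.9, 11.4 and 22.8 at 8 h, lowest in replicate 14 and highest in the series 2 libraries. Ezh2 thus exceeded Ezh1 by more than 10-fold in all 5 libraries on the TPM scale. In coverage the ratio was 8.77 (8 h replicate 14) to 18.1 (8 h replicate 15).

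Suz12 (chr11:79993106-80034123, plus strand), the scaffold subunit, was at 57.7 and 25.5 TPM at 1 h and at 29.5, 25.2 and 34.1 TPM at 8 h. Its mean was lower at 8 h (29.6 ± 4.46) than at 1 h (41.6 ± 22.8), a log2 difference of -0.38 (SE 0.34), and 1 library decided this sign. Without 1 h replicate 1 the difference was 0.20, and without 1 h replicate 2 it was -0.95. Per-base coverage of the gene, brought to one common total per library (scaled coverage), was also high in 1 h replicate 1 (32.6, against 13.4 to 19.9 in the other 4 libraries). Read counts were not: the columns held 169.9 and 156.0 CPM (counts scaled to the total of their column) at 1 h and 153.9, 154.1 and 165.6 CPM at 8 h. The count difference was -0.07 by edgeR, or -0.04 without the column named for replicate 14. The ratio of coverage to CPM was 2.23-fold higher in 1 h replicate 1 than in replicate 2, at the 99.7th percentile of 6860 genes, while for the other 8 members in the count table this fold was 0.882 to 1.04.

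The histone-binding subunits were the most abundant members. Rbbp4 (chr4:129307100-129335370, minus strand) varied least, with 223.9 and 207.3 TPM at 1 h and 234.2, 211.9 and 229.7 TPM at 8 h. The groups overlapped, and the log2 difference of 0.06 (SE 0.095) turned to -0.05 when libraries were scaled by median ratios, a scaling that moved the median of all genes from 0.10 to -0.004. Rbbp7 (chrX:162760402-162779092, plus strand), its X-linked paralog, was at 169.7 and 150.2 TPM at 1 h, and at 241.6, 169.3 and 223.0 TPM at 8 h. Replicate 14 fell between the 1 h values and the other 8 h libraries lay above them, with means of 160.0 ± 13.8 and 211.3 ± 37.5 TPM. The log2 difference was 0.39 (SE 0.17), 0.08 within series 1 and 0.14 in read counts, or 0.21 in counts without the column named for replicate 14. The ratio of Rbbp4 to Rbbp7 was 1.25 to 1.38 in the 3 series 1 libraries and 0.969 and 1.03 in the series 2 libraries, the libraries with Xist. The part of X dosage in this result was not tested. Txlng overlaps Rbbp7 on the opposite strand (mean 12.4 TPM), and whether counting used strand is not stated.

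Among the accessory genes, Aebp2 showed the widest separation of all 10 members in TPM. Aebp2 (chr6:140622449-140678472, plus strand) encodes a zinc finger protein that stimulates PRC2 and helps it to bind nucleosomes. It was at 22.0 and 22.0 TPM at 1 h and at 57.9, 47.5 and 56.0 TPM at 8 h, without overlap and with the 8 h replicate of series 1 on the high side. The means were 22.0 ± 0.0246 (SD, n = 2) and 53.8 ± 5.51 (n = 3), a fold of 2.44 and a log2 difference of 1.25 (SE 0.12). This was 1.08 within series 1 and 1.19 to 1.33 with each library left out in turn.

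The other measures of Aebp2 moved far less. Its scaled coverage was 2.28 and 2.12 at 1 h and 2.93, 2.52 and 3.12 at 8 h, again without overlap but with a fold of 1.30 and a log2 difference of 0.27 (SE 0.15). Its read counts were 105.9 and 97.8 CPM at 1 h and 118.2, 99.7 and 116.8 CPM at 8 h, with overlapping groups and a log2 fold change of 0.11 by edgeR, or 0.19 without the column named for replicate 14. The quotient of TPM and coverage was 9.66 and 10.4 at 1 h and 19.8, 18.9 and 17.96 at 8 h, 1.88-fold higher at 8 h. That quotient placed Aebp2 at rank 13 of 13822 genes, of which 31 (0.224%) had groups that did not overlap in it and differed at least 1.5-fold. For the other 9 members the same fold was 0.897 to 1.13. Aebp2 was accordingly 5th of the 10 members by TPM and 10th by coverage, and its share of the TPM of the 4 accessory genes was 29.9% and 32.7% at 1 h and 46.1% to 50.7% at 8 h, against 10.01% to 11.6% of their coverage in all 5 libraries.

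TPM sums the transcripts of a gene, each divided by its own length, whereas coverage averages over the bases of a gene and counts take each read once. GENCODE vM21 lists 9 Aebp2 transcripts of 480 to 5932 bases, and RefSeq lists 3 start sites, at chr6 positions 140622663, 140624909 and 140626885, more than for any other member (7 members have 1). The window of the middle start held 21 CpGs and those of the other starts 4 each. The deposited tables give values per gene, so which transcripts made up the TPM, and their part in the result, was not tested.

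**Figure D2:**
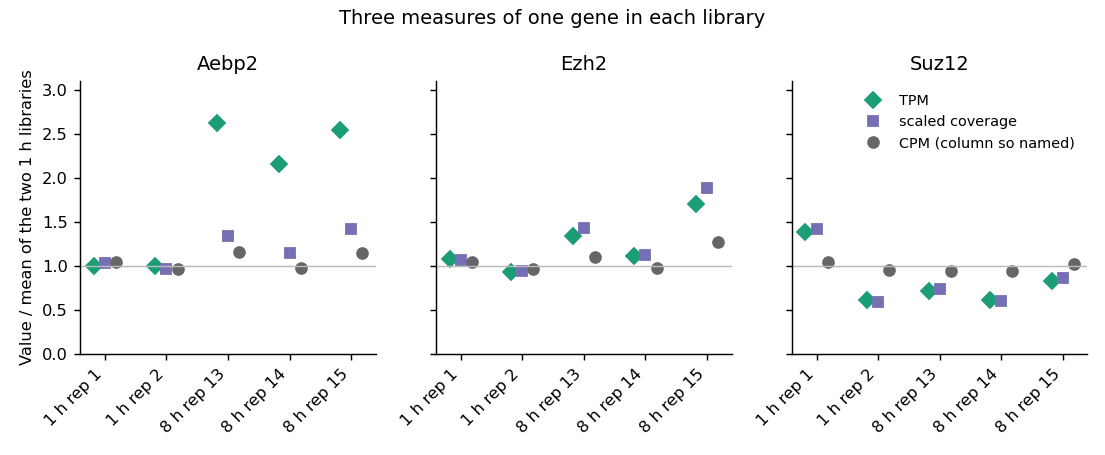
TPM, scaled coverage and CPM of Aebp2, Ezh2 and Suz12 in each library, each divided by its mean over the 1 h libraries (count columns by their names, which may not be the libraries they name at 8 h). For Aebp2 the TPM of the 8 h libraries leaves the other measures behind. For Ezh2 TPM and coverage move together and CPM differs less between its columns, which at 8 h may hold other libraries. For Suz12 TPM and coverage are high in 1 h replicate 1 while CPM is level.

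Jarid2 (chr13:44729474-44921643, plus strand) encodes a Jumonji family protein without demethylase activity that recruits PRC2. Its TPM was 14.9 and 15.9 at 1 h and 21.7, 17.3 and 17.3 at 8 h, without overlap, with a log2 difference of 0.26 (SE 0.15). Its coverage overlapped between the groups, and its CPM lay on the opposite side: 92.0 and 99.7 at 1 h against 80.3, 89.1 and 78.0 at 8 h, a log2 fold change of -0.25 by edgeR, or -0.29 without the column named for replicate 14. The direction of Jarid2 thus depended on the measure.

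Mtf2 (chr5:108065674-108109004, plus strand), a Polycomb-like protein that binds unmethylated CpG-rich DNA, was at 29.9 and 22.9 TPM at 1 h, and at 21.3, 32.8 and 27.1 TPM at 8 h. The groups overlapped, and the log2 difference of 0.03 (SE 0.21) took either sign, from -0.16 to 0.21, with a library left out, and was -0.08 when libraries were scaled by median ratios. Tmed5 overlaps Mtf2 on the opposite strand and had a mean of 44.3 TPM. Phf19 (chr2:34893757-34914026, minus strand), also Polycomb-like, was at 6.94 and 6.53 TPM at 1 h, and at 13.4, 5.61 and 12.3 TPM at 8 h. Replicate 14 was the lowest of all 5 libraries, and the other 8 h libraries were the highest, so that the log2 difference of 0.48 (SE 0.35) became -0.23 within series 1.

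Counted over the 10 members, 4 (Ezh2, Eed, Aebp2 and Jarid2) had every 8 h TPM above every 1 h TPM and 0 had every 8 h TPM below, beside 23.7% and 9.43% of the 13870 genes tested. In coverage 5 members (Ezh1, Ezh2, Eed, Rbbp7 and Aebp2) were above and 0 below, beside 27.1% and 7.93% of genes. In CPM, of the 9 members in the count table (Rbbp4 is not in it), Rbbp7 was above, Jarid2 below and 7 overlapped, beside 11.6% and 7.05% of genes. The median log2 difference of the members was 0.29 in TPM, 0.22 in coverage and 0.11 in counts, beside 0.10, 0.13 and 0.006 over all genes. For the 6 core genes it was 0.21, 0.25 and 0.13, and for the 4 accessory genes it was 0.37, 0.22 and -0.03.

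A gene was called where its adjusted p did not exceed 0.05 and its log2 difference exceeded 1 in size. By limma 6 of 13870 genes (0.0433%) and 0 of the 10 members were called in TPM. At an unadjusted p under 0.05 limma listed 1712 genes (12.3%). On the counts, edgeR called 0 of 7590 genes (0%), with 199 (2.62%) at an unadjusted p under 0.05, and DESeq2 also called 0, with 227. These shares describe the background for genes chosen on the same contrast, and nothing is read from the members' count.

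**Figure D3:**
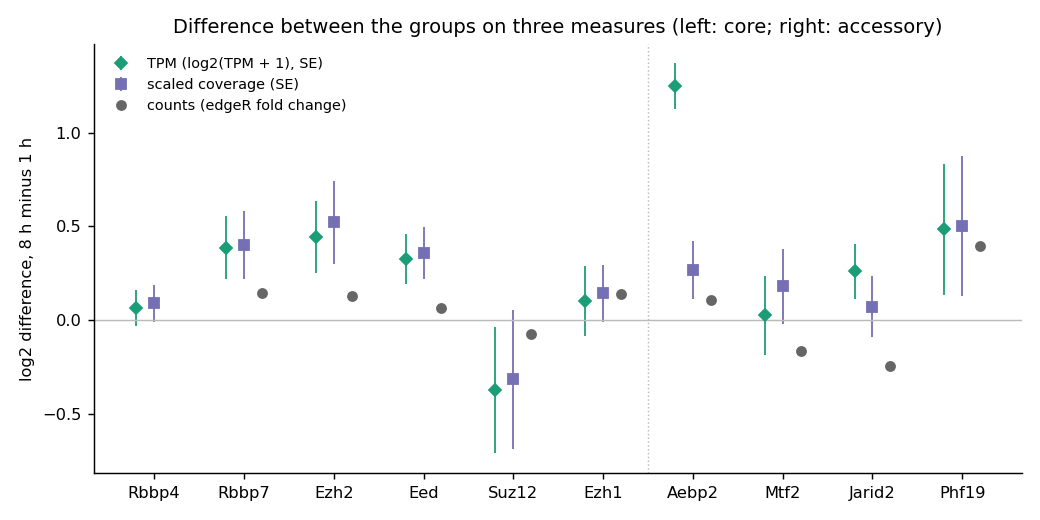
Difference between 8 h and 1 h (log2) for each member in TPM (log2(TPM + 1)), scaled coverage and counts, with bars for the SE where drawn and core genes left of the dotted line. Aebp2 stands at 1.25 in TPM and at 0.27 and 0.11 in the other measures, and Jarid2 and Mtf2 change sign between TPM and counts.

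By identifier series, 7 of 10 members were higher in both series 2 libraries than in all 3 series 1 libraries, beside 39.8% of all genes. Lower in both were 0 members, beside 13.5%. The 7 were the core genes Ezh2, Eed, Rbbp4 and Rbbp7 and the accessory genes Aebp2, Jarid2 and Phf19. Jarid2 was among them by 17.263 TPM (8 h replicate 15) against 17.256 TPM (8 h replicate 14), and Aebp2 was high in replicate 14 too. Both series 2 libraries are 8 h libraries, and the members were chosen with these values known. Nothing is therefore read from the count of 7. Relative to the series 1 mean, the series 2 mean was 2.02-fold for Phf19, 1.87-fold for Aebp2, 1.46-fold for Ezh2, 1.42-fold for Rbbp7, 1.30-fold for Eed, 1.22-fold for Jarid2 and 1.08-fold for Rbbp4. Ezh1 (0.878-fold), Suz12 (0.88-fold) and Mtf2 (0.849-fold) overlapped between the series. Of the members with E2F letters in the promoter window, Ezh2 and Phf19 were among the 7 and Suz12 was not. That is close to the 7 of 10 over all members, and nothing is read from it. The proliferation markers were higher in the same libraries (values above), as was Ccna2, the cyclin of DNA replication, at 69.3 to 73.8 TPM in series 1 against 203.5 and 230.9 TPM in series 2. Mitochondrial transcripts took 10.7% to 11.1% of TPM in series 1 and 6.23% and 6.30% in series 2. The part of these in the members' levels was not tested. Time and series can be told apart only through 8 h replicate 14. Its level is set here against the 1 h mean and the series 2 mean, for the 7 members above. It was closer to the 1 h mean for Ezh2, Eed, Rbbp4, Rbbp7, Jarid2 and Phf19, and closer to the series 2 mean for Aebp2.

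**Figure D4:**
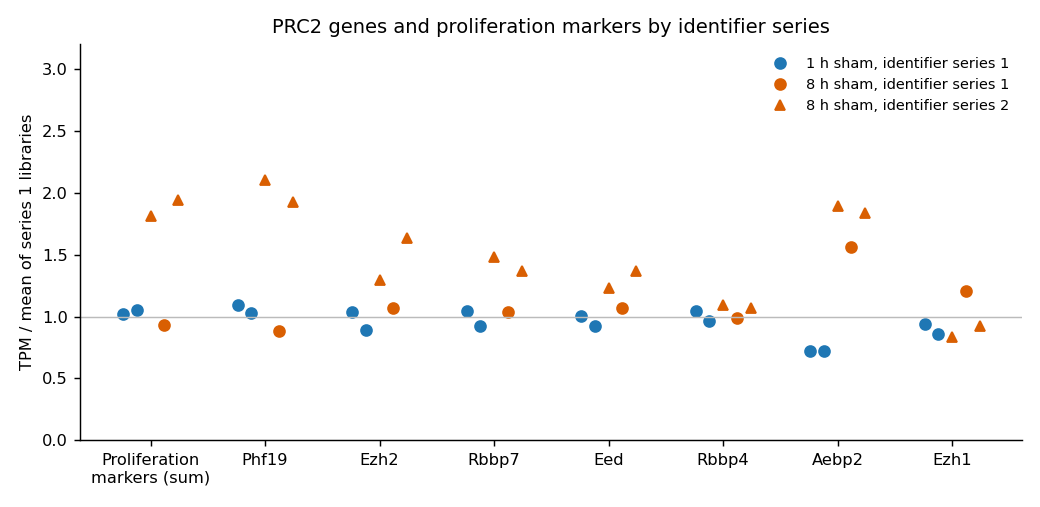
TPM of 7 members and the summed proliferation markers in each library, divided by the mean of the series 1 libraries (blue, 1 h; orange, 8 h; triangles, series 2). Phf19, Ezh2, Rbbp7 and Eed are raised in the triangles with the proliferation markers, Aebp2 is raised in all 8 h libraries, and Ezh1 is not raised in the triangles.

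The genes with patterns most like that of Ezh2 over the 5 libraries, among 8899 genes with a mean of at least 10 TPM, were Kitl, Osgep, Zfp943, Lyar and Aida, with root mean square differences of 0.0428 to 0.0465 on the log2 scale. Kitl, the ligand of the receptor Kit, was at 62.5 and 53.7 TPM at 1 h, and at 83.6, 65.3 and 104.3 TPM at 8 h, nearly the values of Ezh2 itself. For Aebp2 the closest genes were Rpp38, Polh, Klf10, Ppp1r3c and Cebpg, at 0.114 to 0.141. Klf10, a zinc finger factor, went from 29.6 and 30.7 TPM at 1 h to 99.9, 66.9 and 86.4 TPM at 8 h. In these 5 genes TPM and coverage moved together, with a quotient at 8 h of 0.982-fold that at 1 h, unlike the 1.88-fold of Aebp2.

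The other genes of the Polycomb pathway were 64 genes in 6 lists, of which 55 were tested in TPM and 33 in counts. With all 5 libraries limma called 0 of 55 (smallest adjusted p = 0.309) and listed 13 at an unadjusted p under 0.05 (12.3% of all genes were), of which 12 were higher at 8 h and Asxl1 was lower. On the counts edgeR called 0 of 33 (smallest adjusted p = 0.966), DESeq2 called 0, and each listed only Bcorl1, a partner of PRC1, at an unadjusted p under 0.05. Without 8 h replicate 14, limma called Uty alone (log2 difference -3.98, adjusted p = 0.000648), and series and time then cannot be told apart. In 19 of the 55 every 8 h TPM was above and in 3 below the 1 h values, beside 23.7% and 9.43% of all genes, and the median log2 difference was 0.13, beside 0.10.

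PRC1, the complex that binds the mark of PRC2 and places ubiquitin on histone H2A, had 23 genes tested. For 11 of them every 8 h TPM was above, and for 0 below, beside 23.7% and 9.43% of all genes, with a median log2 difference of 0.26 in TPM and 0.08 in counts. In 15 of the 23 both series 2 libraries were above all series 1 libraries, beside 39.8% of all genes. Phc2, its most abundant gene and a polymerising subunit, was at 125.2 and 125.5 TPM at 1 h and at 208.4, 156.6 and 180.6 TPM at 8 h, but its log2 difference of 0.52 in TPM was 0.20 in coverage and 0.08 in counts, the same order of the measures as for Aebp2. Bmi1, a core PRC1 subunit needed for neural stem cell self-renewal, had means of 97.7 ± 10.2 and 108.3 ± 6.29 TPM, and Yaf2, a subunit of variant PRC1, 96.3 ± 2.67 and 100.4 ± 15.7 TPM, both with overlapping groups.

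Of the other PRC2 accessory and inhibitor genes, 4 of 5 were tested and 0 had groups that did not overlap. Lcorl had means of 19.3 ± 3.59 and 20.5 ± 1.56 TPM, Lcor 8.30 ± 0.355 and 7.76 ± 1.47 TPM, and Phf1, the third Polycomb-like gene, 5.92 ± 0.175 and 6.59 ± 0.837 TPM. Mtf2 was thus the most abundant of the Polycomb-like genes in all libraries. Genes of the enzymes that remove the mark were at levels like those of the accessory members. Kdm6b was at 20.3 and 24.9 TPM at 1 h, and at 32.3, 27.2 and 35.2 TPM at 8 h, and Kdm6a had means of 22.8 ± 4.02 and 24.0 ± 1.16 TPM. Uty, the Y-linked relative, was at 14.3, 15.3 and 24.5 TPM in the series 1 libraries and listed at 0 in the series 2 libraries.

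In the list of deubiquitinase genes, which act on the PRC1 mark, Foxk2 had means of 69.5 ± 1.69 and 85.9 ± 11.1 TPM and Bap1, the enzyme, 68.2 ± 3.03 and 70.2 ± 5.82 TPM. Asxl1, its cofactor, was at 39.3 and 38.5 TPM at 1 h, and at 33.0, 32.8 and 32.7 TPM at 8 h, lower in every 8 h library. Partners of RBBP4 and RBBP7 outside PRC2 ranged from a mean of 9.61 TPM (Chd3) to 239.3 TPM (Mbd3) over the 16 genes. Of the 3 most abundant, Mbd3 of the NuRD complex had means of 211.8 ± 19.8 and 257.6 ± 34.3 TPM, the deacetylase gene Hdac2 199.6 ± 31.9 and 213.2 ± 13.4 TPM, and Sin3b of the Sin3 complex 215.2 ± 0.949 and 189.9 ± 15.4 TPM.

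Of 11 genes known from textbooks as PRC2 targets, 6 (Hoxa9, Hoxc9, Hoxd9, Gata4, Gata6 and Foxa2) were listed at 0 in all 5 libraries. Hoxb9 reached 0.0398 TPM, in 1 h replicate 1 only. T was at 0.164 and 0.125 TPM at 1 h and at 2.03, 0.116 and 0.611 TPM at 8 h. The cell cycle inhibitor gene Cdkn2a, a known target in neural stem cells, was at 126.2 and 164.2 TPM at 1 h and 149.7, 116.5 and 140.3 TPM at 8 h, above Ezh2 in every library. Cdkn2b was at 40.8 to 51.5 TPM and Cdkn1c at 1.32 to 2.59 TPM, and for each of these targets the groups overlapped.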

How the data were processed

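Poly-A selected, stranded libraries of 5 cultures were sequenced. Per the labels and the methods of the study, reads were converted with bcl2fastq 2.19.1.403 and mapped to GRCm38 through the nf-core/rnaseq workflow; the submitters' processing notes also name DESeq2. The authors deposited, for each library, a table per gene with TPM, FPKM and per-base coverage signal, whose layout is that of StringTie, and a table of raw read counts for 7599 genes, whose column sums are below the library depth. The tool behind the TPM and the filter of the count table are not stated in the sources. Column names of the count table were taken as given, and 0 columns were left unassigned.

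TPM was summed per gene identifier. Deposited coverage was brought to one common total per library (scaled coverage), and deposited FPKM served only to compare depth. Groups came from the labels. The methods of the study count 1 animal as 1 biological replicate for these cells, and the labels do not name the animal of each sample. limma 3.58.1 (R 4.3.3, intensity trend) was fitted on log2(TPM + 1) for 13870 genes averaging at least 1 TPM, and edgeR 4.0.16 (TMM, filterByExpr, quasi-likelihood) on the counts, with Benjamini-Hochberg adjustment. DESeq2 1.42.0 was an alternative. Both fits were run on simulated data with planted changes and no difference between series. That run says nothing of the series in these libraries. The members and lists were chosen with earlier results of these data known. Named genes were all members, the 3 most abundant genes of each pathway list, and the 5 most alike genes for Ezh2 and Aebp2. Pathway genes called, or under an unadjusted p of 0.05 in both fits, were named too. Bcorl1, Chd3 and the other textbook targets were named outside this rule, Bcorl1 after its values were seen. Marker genes and overlapping genes were named as well. Libraries exposed to hydrogen peroxide were not analysed here.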

Additional observations from a re-analysis of the deposited data

How the results depend on the processing

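With 2 and 3 libraries a group, single libraries weighed heavily. The 6 genes called in TPM became 0 without the filter on low values (2371 at an unadjusted p under 0.05) and 19 with the identifier series as a term. Leaving out a library gave 0 to 568 calls, the 568 without 8 h replicate 14, when series and time cannot be told apart, with Aebp2 among them. Calls among the pathway genes ranged from 0 to 1 over the libraries left out. The median difference of the members, 0.29, was 0.15 with the series as a term or in series 1 alone, 0.11 in counts and 0.24 to 0.37 over the libraries left out. The count table gave 0 calls under each alternative run. Coverage in place of TPM was chosen after seeing the data. No paired analysis was possible because the groups share no replicate number. The causes were not tested. Of the alternatives run for single members (12 each, 11 for Rbbp4), Ezh2, Eed, Rbbp7 and Aebp2 kept their direction in all. Ezh1, Suz12, Rbbp4, Jarid2, Mtf2 and Phf19 did not. The alternatives reuse the same 5 libraries, and the series as a term and series 1 alone gave the same differences. The smallest difference was 0.13 for Ezh2, 0.065 for Eed, 0.084 for Rbbp7 and 0.11 for Aebp2.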
